A study of Rattus norvegicus with 12 samples.

Results

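Cell cycle and proliferation genes were followed in the pancreatic islets of 15-week-old Sprague-Dawley rats. The set holds 39 genes chosen by symbol (cyclins, their kinases and inhibitors, replication and nucleotide enzymes, mitotic kinases, and proliferation markers), and all 39 were found among the 17407 gene entries of the deposited table. Female Sprague-Dawley rats, 6 on each diet, ate either a low-fat diet (LF, 10% fat) or a high-fat and sucrose diet (HFS, 45% fat) for 6 weeks before mating with LF-fed males, and stayed on it through pregnancy and suckling. The HFS-fed dams are the model of gestational diabetes mellitus (GDM), the LF-fed dams the lean controls. Their pups were weaned onto LF or HFS for 12 weeks, which gave 4 groups of 3 RNA-seq libraries: Lean-LF (lean dam, LF weaning), Lean-HFS, GDM-LF and GDM-HFS. GDM here is a dam's diet that continued through suckling, so exposure in the womb and through milk cannot be told apart. All 39 genes passed the filter on low values (a mean scaled value of at least 1), which 12339 entries passed.

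A cell enters the cycle when D-type cyclins and the kinases Cdk4 and Cdk6 phosphorylate the retinoblastoma protein and release E2F factors, which switch on the genes of DNA synthesis. Cyclins E and A with Cdk2 carry the cell through S phase, in which the MCM helicase and the clamp Pcna take part in DNA replication. B cyclins with Cdk1 start mitosis, which the Aurora and Polo kinases, the Bub checkpoint proteins and Cdc20 then guide. Adult beta cells rarely divide: cyclin D2 and Cdk4 are known as their main cell cycle entry pair, p27 (Cdkn1b) holds them at rest, and p16 (from Cdkn2a) is known to build up in islets with age.

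The libraries held 11469290 to 27492858 reads in genes, and a scaled value of 1 stands for 1.73 to 6.02 reads. The scaled value, used throughout, is a gene's depth-corrected read number, not divided by transcript length. Islet hormone and beta cell markers summed to between 1349305 and 2480061 in every library, mostly from Ins1 and Ins2, so each library held islet RNA. Within the list, Slc2a2 ran from 2879 (GDM-LF 2) to 11751 (Lean-LF 1) and Nkx6-1 from 150 to 772 in the same libraries. Gcg ran from 26953 (GDM-LF 1) to 202644 (GDM-HFS 3). Ribosomal RNA took 11.3% to 38.98% of reads in 5 of the 6 lean libraries, 1.84% in the other (Lean-LF 3), and 1.84% to 8.55% in the 6 GDM libraries. Exocrine carry-over also differed: the acinar marker sum was 24826 to 68624 for Lean-LF, against 35454 to 615491 for GDM-LF, and 36876 to 201343 for Lean-HFS, against 97761 to 193702 for GDM-HFS. The titles of 3 libraries (GDM-LF 1, GDM-LF 2 and GDM-HFS 3) hold the letter K where the other 9 hold G. The labels do not explain the letter, nor say whether the 3 libraries of a group came from separate animals or litters, so p-values measure only the spread between these libraries. In bulk RNA, fewer cells of a type and less RNA per cell cannot be told apart.

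Levels differed widely between the genes of the set. Per kilobase of transcript, the mean scaled value over the 12 libraries was 765 for Ccnd2 (cyclin D2), 422 for Cdk4, 283 for Ccnd1, 267 for the replication clamp Pcna, 109.5 for Ccnd3 and 106 for Cdkn1b. The ratio of Cdk4 to Cdk6, the other kinase of the D-type cyclins, was 109 on this per-kilobase scale, with Cdk6 at 3.88, below the mitotic kinase Cdk1 at 6.50. At the other end, the checkpoint kinases Bub1 and Bub1b reached 1.12 and 0.652 per kilobase and the proliferation marker Mki67 reached 1.16, so that Ccnd2 exceeded Mki67 by 662-fold. The Cdkn2a entry stood at 4.46 per kilobase, with 1 to 21 reads a library. That entry spans 244251 bases for a transcript of 692, so its values are uncertain. Across the set, 22 genes had at least 10 reads in every library, 16 had a mean scaled value under 10, and 5 (Ccna2, Ccnb2, Aurkb, Birc5 and Mis18a) were at 0 reads in at least 1 library. The counts used both strands, and 5 genes share bases with another entry. Rb1 overlaps Itm2b (mean scaled value 4185) and Lpar6, Cdkn2a overlaps Mtap, Cdk4 overlaps Tspan31 by 9 bases, and Mcm7 contains the microRNAs Mir93, Mir25 and Mir106b. The Ccnb2 entry spans 1495 bases for a transcript of 1492 and lies wholly inside Akap7, whereas RefSeq places the gene on another chromosome, so its low values are uncertain.

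**Figure D1:**
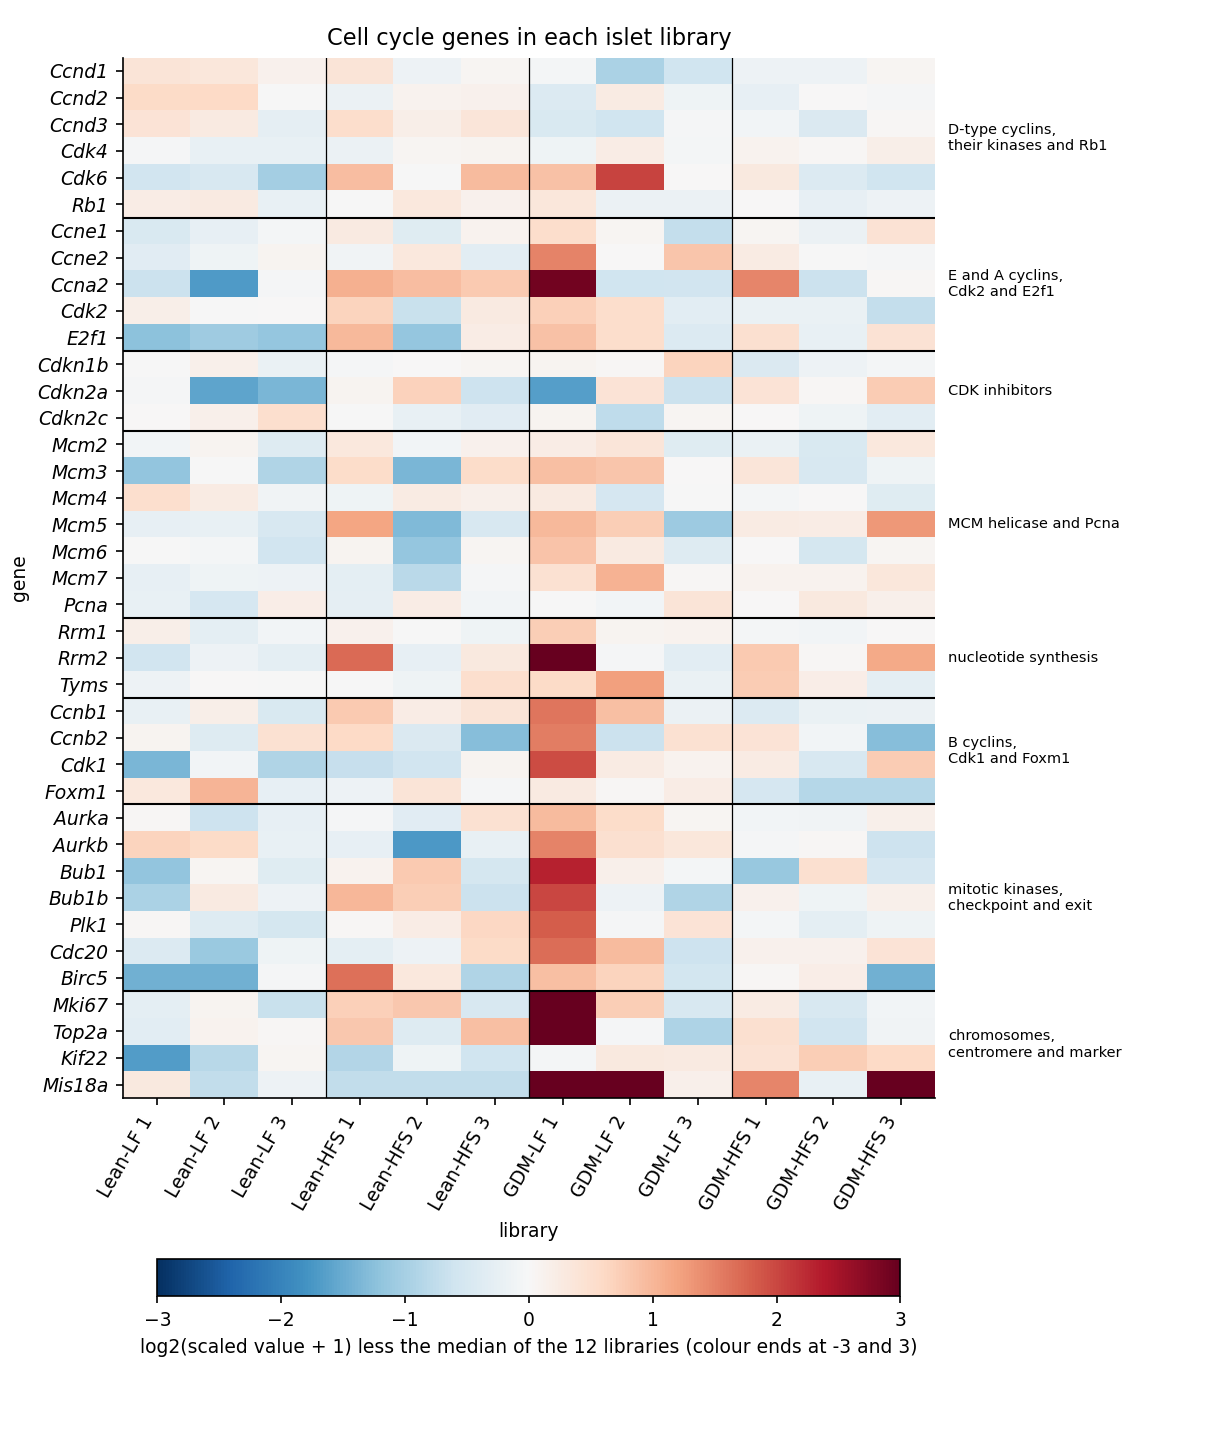
Heat map of the 39 genes (rows, grouped by role) in the 12 libraries (columns); colour is log2(scaled value + 1) less the gene's median over the libraries, red above and blue below. The column of GDM-LF 1 is the reddest for most rows from the B cyclins to Top2a, Foxm1 and Birc5 excepted, and Mis18a is red in GDM-LF 1, GDM-LF 2 and GDM-HFS 3.

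One library, GDM-LF 1, carried the highest level of most S phase and mitosis genes. Mki67 had a scaled value of 63.2 in GDM-LF 1, against 3.49 to 11.5 in the other 11 libraries. Top2a, the topoisomerase that untangles replicated chromosomes, stood at 77.2 against 3.496 to 15.0. Rrm2, the S phase subunit of ribonucleotide reductase, stood at 29.0 against 1.06 to 8.96. These were 10.96, 10.6 and 14.8 times the median of the other libraries. Cyclin A2 (Ccna2, 23.0 against 0 to 7.86) and Bub1 (22.2 against 1.06 to 7.16) showed the same pattern at lower levels. Of the 39 genes, 20 (51.3%) were highest in GDM-LF 1, against 12.97% of all genes tested. In 9 of the 39 (23.1%) it was at least 2.0 times the next highest library, against 1.44% of all genes.

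By role, GDM-LF 1 was highest for 6 of 7 mitotic kinase, checkpoint and exit genes (Birc5, which encodes survivin, was highest in Lean-HFS 1), 4 of 5 genes of the E and A cyclin group, 3 of 4 of the B cyclin group, and 2 of 7 MCM and Pcna genes. Among the 6 genes of the D-type cyclin group only Rb1 was highest there, and none of the 3 CDK inhibitors was. In its group, GDM-LF 2 showed the pattern more weakly and GDM-LF 3 did not. Over the 39 genes the median log2 deviation from a gene's own median was 0.88 in GDM-LF 1. It was 0.25 in GDM-LF 2, the next highest library, -0.06 in GDM-LF 3, and at most 0.09 in the other groups (Lean-HFS 1). Cdk4 (461 in GDM-LF 1, 435 to 591 elsewhere), Cdkn1b (192, against 133 to 289) and Pcna (302, against 212 to 395) lay inside the range of the other libraries, while Ccnd2 (761, against 853 to 1528) was lowest in GDM-LF 1. Cdkn2a (0.376, against 0.435 to 6.35) had 1 read in GDM-LF 1 and 1 in Lean-LF 2, a tie apart from depth scaling.

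A list of 175 other cell cycle genes tested gave a like picture, with 86 (49.1%) highest in GDM-LF 1 and a median log2 deviation of 0.64 there, against 0.00 over all genes. The same library also had the highest sum of stellate and fibroblast markers, 7702 against 257 to 1329 in the other 11, with 6 of the 7 markers highest in it and none at 0. Col1a1 stood at 1519 there and at most at 294 elsewhere, and Col3a1 at 4358 against at most 668. Of 6 duct markers 3 were highest in it as well: Cftr at 32.4 (at most 17.7 elsewhere), Sox9 at 48.9 (at most 23.0) and Spp1 at 1332 (at most 943), and none was at 0. The other 3, Krt19, Krt8 and Car2, were highest in GDM-LF 2. The duct marker sum was 6284 in GDM-LF 1, below GDM-LF 2 (10721), Lean-HFS 3 (8653) and GDM-HFS 1 (6598). Its macrophage marker sum was 94.1, between the 37.5 of GDM-HFS 3 and the 198 of the next library. The part of these cell types in the proliferation gene levels was not tested.

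**Figure D2:**
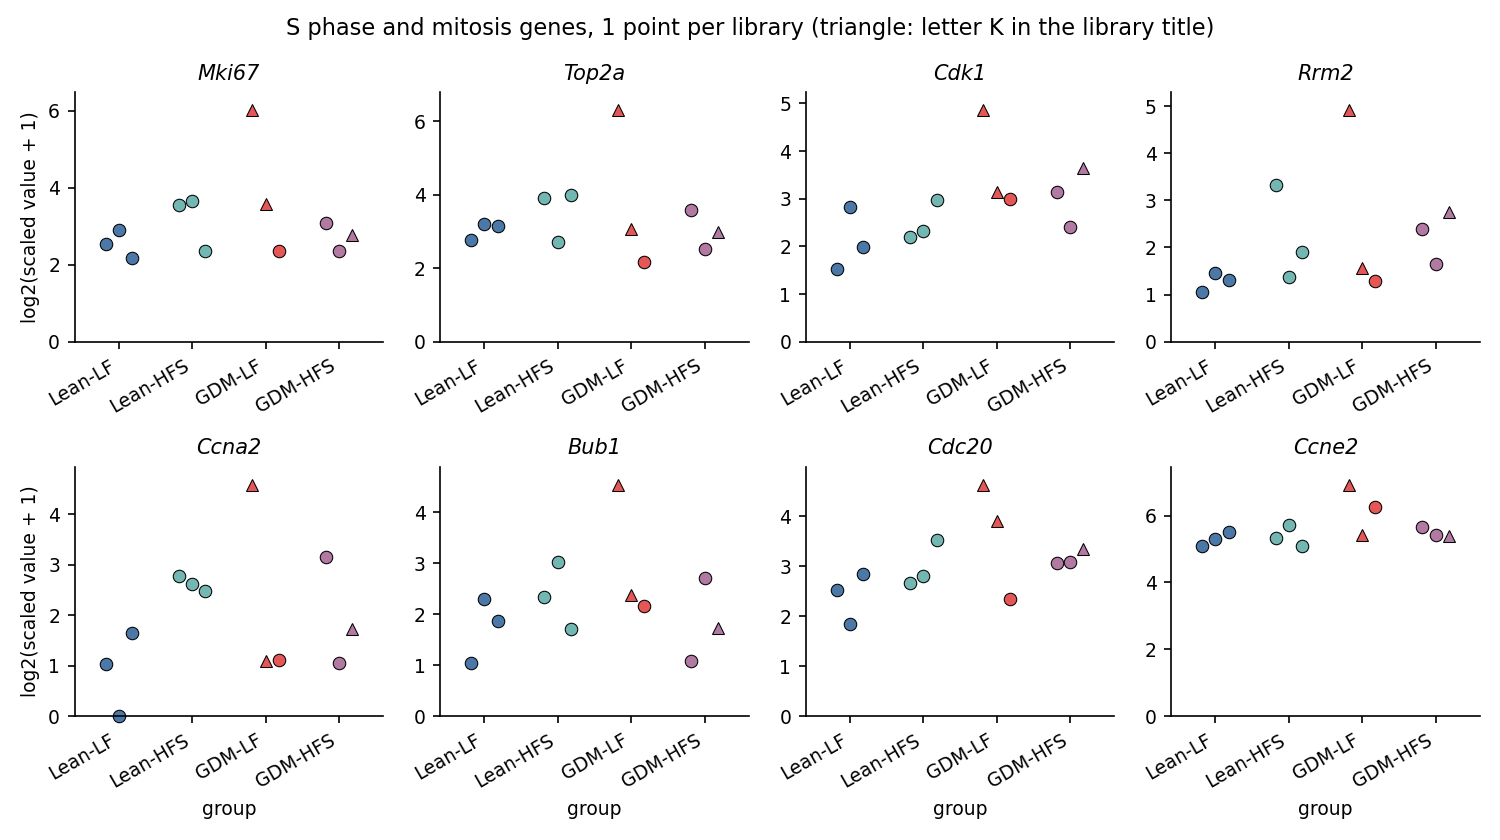
Levels of 8 S phase and mitosis genes as log2(scaled value + 1) (vertical axes) in the 4 groups (horizontal axes), 1 point per library, with triangles for the libraries whose title holds K. The highest point in each panel is GDM-LF 1, at a scaled value of 63.2 for Mki67 and 77.2 for Top2a.

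Genes of DNA synthesis and of mitosis are known to be read under different promoter elements: E2F sites in the former, and the cell cycle homology region (CHR) with CCAAT boxes in the latter. RefSeq promoter windows (GRCr8, 250 bases before to 50 after the start, 300 in all) were found for 29 of the 39 genes and searched on both strands. The 5 printed here are Top2a and Cdk1, which stood out in GDM-LF 1, and the 3 genes that rose with GDM of the dam, below. Each runs 5′ to 3′ on its gene's strand, and capitals mark matches to TTTGAA (CHR), CCAAT, and, for E2F, TTGGCGC with its variants, which were TTCCCGC and then TTGCCGC and lastly TTCGCGC, or their reverse complements.
Top2a: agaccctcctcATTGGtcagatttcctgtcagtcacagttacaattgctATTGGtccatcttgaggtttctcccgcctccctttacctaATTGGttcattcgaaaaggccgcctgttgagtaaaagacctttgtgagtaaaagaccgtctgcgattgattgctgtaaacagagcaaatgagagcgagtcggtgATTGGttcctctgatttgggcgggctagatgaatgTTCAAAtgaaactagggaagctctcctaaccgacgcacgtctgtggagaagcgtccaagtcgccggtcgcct
Cdk1: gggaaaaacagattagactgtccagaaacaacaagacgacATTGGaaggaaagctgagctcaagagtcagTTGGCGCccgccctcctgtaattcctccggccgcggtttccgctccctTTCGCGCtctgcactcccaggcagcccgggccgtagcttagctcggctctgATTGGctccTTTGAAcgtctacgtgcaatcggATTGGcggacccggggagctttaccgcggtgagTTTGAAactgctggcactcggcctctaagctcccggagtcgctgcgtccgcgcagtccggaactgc
Mcm7: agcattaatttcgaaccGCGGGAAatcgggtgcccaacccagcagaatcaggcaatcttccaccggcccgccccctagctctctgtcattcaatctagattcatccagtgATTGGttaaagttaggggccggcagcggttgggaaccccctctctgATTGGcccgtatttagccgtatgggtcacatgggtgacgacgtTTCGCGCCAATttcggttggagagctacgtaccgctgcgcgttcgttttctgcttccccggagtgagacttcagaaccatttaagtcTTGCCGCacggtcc
Kif22: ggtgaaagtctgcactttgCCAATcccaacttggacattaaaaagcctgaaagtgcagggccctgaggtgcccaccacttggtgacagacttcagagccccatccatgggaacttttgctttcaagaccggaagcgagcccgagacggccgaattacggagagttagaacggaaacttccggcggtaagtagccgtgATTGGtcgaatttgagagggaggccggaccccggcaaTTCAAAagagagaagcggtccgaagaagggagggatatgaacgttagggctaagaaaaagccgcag
Mis18a: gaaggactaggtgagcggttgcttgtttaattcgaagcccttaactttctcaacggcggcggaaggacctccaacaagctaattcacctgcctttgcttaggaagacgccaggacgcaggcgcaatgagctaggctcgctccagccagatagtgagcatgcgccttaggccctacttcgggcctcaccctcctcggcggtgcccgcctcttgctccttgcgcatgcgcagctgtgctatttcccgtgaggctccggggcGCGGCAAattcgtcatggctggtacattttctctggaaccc

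The windows are chr10:84473044-84473343 on the minus strand for Top2a, chr20:19265043-19265342 on the plus strand for Cdk1, chr12:22163129-22163428 (minus) for Mcm7, chr1:191080829-191081128 (minus) for Kif22, and chr11:43467108-43467407 (minus) for Mis18a. Top2a and Kif22 hold CHR and CCAAT matches and no E2F match, Cdk1 holds all 3 kinds, Mcm7 holds E2F and CCAAT matches, with 2 of its 4 E2F matches overlapping 1 CCAAT match, and Mis18a holds an E2F match alone. Over the 29 windows, CHR matches occurred in 10 (34.5%), against 11.3% of the windows of all genes tested and 18.3% of all windows. CCAAT occurred in 18 (62.1%, against 37.3% and 37.5%) and E2F in 15 (51.7%, against 16.8% and 9.52%). Both CHR and CCAAT occurred in 8 (27.6%, against 4.69% and 7.41%). Of the 16 genes with a window that were highest in GDM-LF 1, 7 held a CHR match, and of the 13 others 3 did. For CCAAT the counts were 11 and 7, and for E2F 8 and 7. The 16 include Ccnb2, with a match of all 3 kinds. Its window is on chr8, but its values come from the chr1 entry inside Akap7. These are letter matches, not tested sites.

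The first comparison asked how islets of GDM offspring differed from those of lean offspring, with both weaning diets weighted equally. In it 3 genes rose: Kif22, a chromosome-moving kinesin; Mcm7, a subunit of the replicative helicase; and Mis18a, which helps load the centromeric histone. The cyclins Ccnd1 and Ccnd3 fell. On rn5 the entries of the 5 genes span chr1:205441133-205467610 (Kif22), chr12:21364250-21371507 (Mcm7), chr11:34491728-34504737 (Mis18a), chr1:224960136-224969658 (Ccnd1) and chr9:14326227-14332257 (Ccnd3), all on the minus strand, and their values sum exon reads. The remaining 34 genes did not pass (limma, adjusted p under 0.05 over all genes tested). The 5 called genes are 12.8% of the set, near the 11.6% of all genes called in the same comparison (6.13% higher and 5.43% lower). An unadjusted p under 0.05 was reached by 8 of the 39, against 30.9% of all genes. The log2 difference was above 0 for 30 of the 39 genes (52.7% of all genes), with a median of 0.29, beside a median of 0.03 over all genes. Without GDM-LF 1 the median over the set was 0.07, with 24 above 0 (52.4% of all genes). In that fit 2 genes of the set passed (Kif22 and Ccnd1), and 9.98% of all genes. Without the 3 K libraries the median was 0.01 and no gene passed, of the 39 or of all genes tested; 3 of the 39 and 2111 of all genes then had an unadjusted p under 0.05. With the ribosomal RNA level as a covariate no gene of the table passed either (434 of all genes and none of the 39 at an unadjusted p under 0.05); the called genes kept their sign, with log2 differences of 0.52 for Kif22, 0.48 for Mcm7, 2.04 for Mis18a, -0.41 for Ccnd1 and -0.13 for Ccnd3. The ribosomal RNA share and the dam's group largely move together here, and their parts cannot be told apart.

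**Figure D3:**
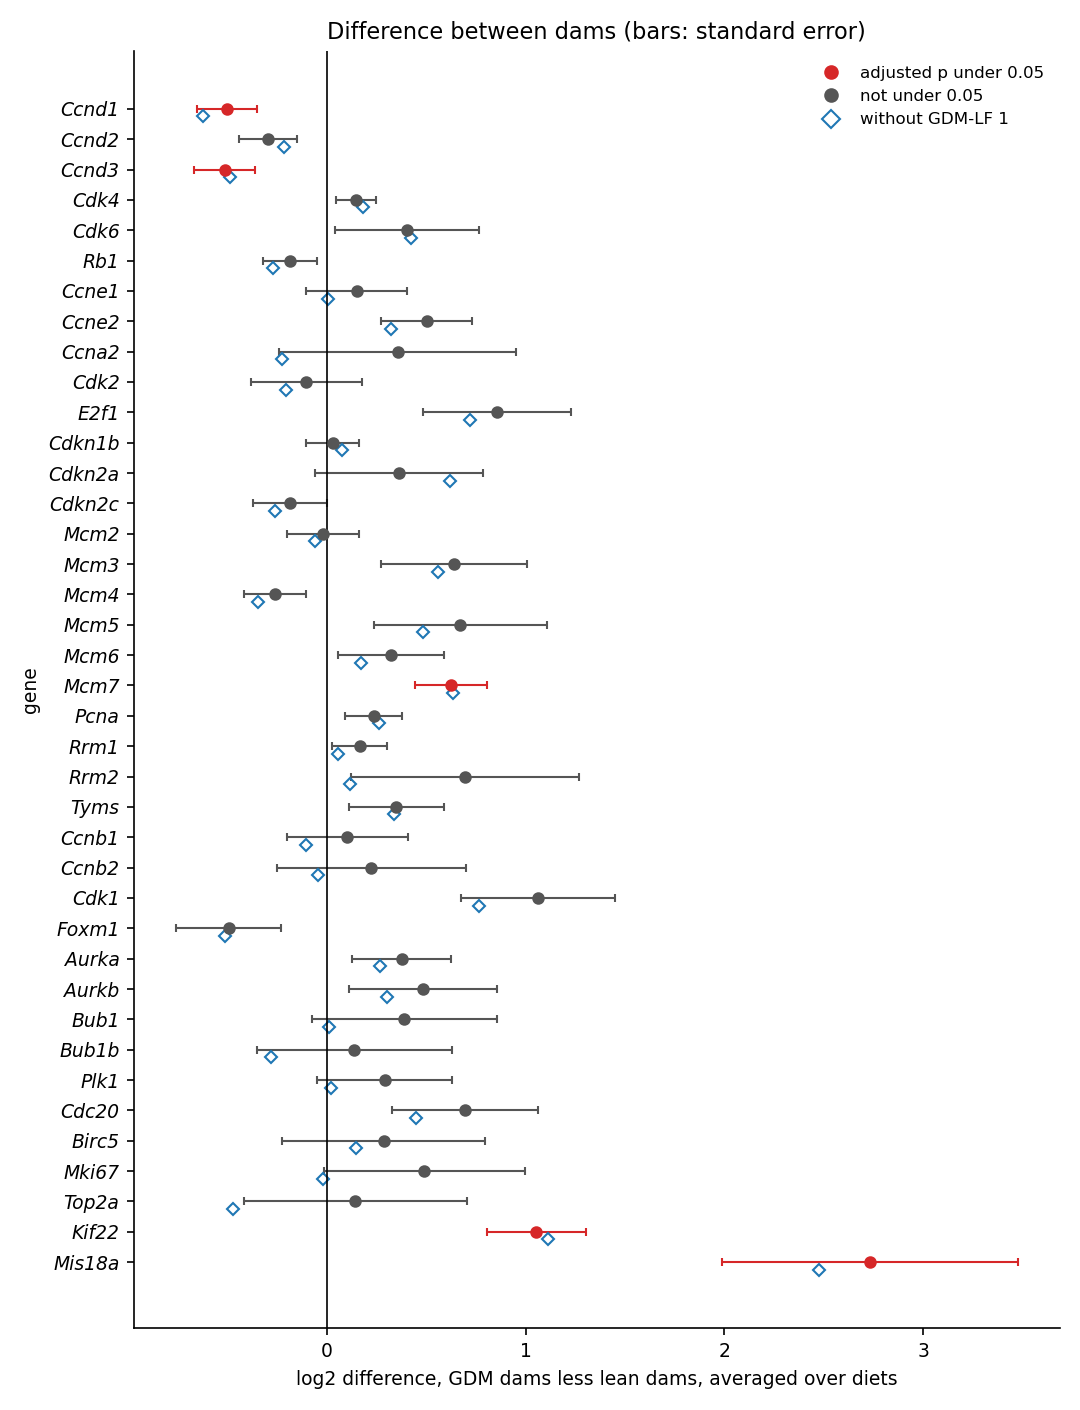
Log2 difference between offspring of GDM and lean dams averaged over diets (horizontal axis) for each gene (vertical axis); filled points with bars are the estimate ± SE from 12 libraries, red where the adjusted p was under 0.05, and open diamonds the estimate without GDM-LF 1. Kif22 at 1.05 and Mis18a at 2.73 lie to the right and Ccnd1 at -0.50 and Ccnd3 at -0.51 to the left, and the diamonds of Top2a and Rrm2 lie far to the left of their points.

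Of the 6 genes of the D-type cyclin group, which start the cycle, 2 fell and 4 did not pass. Ccnd1 (cyclin D1) had scaled values of 1419, 1375 and 1186 in Lean-LF, 1418, 979.5 and 1125 in Lean-HFS, 1047, 562 and 717 in GDM-LF, and 971, 979 and 1118 in GDM-HFS. The 3 GDM-LF values lie below the 3 Lean-LF values, while the HFS groups overlap. The share of all genes separated so between 3 and 3 libraries was not counted. Its log2 difference was -0.50 ± 0.15 (SE, adjusted p = 0.0492), with -0.82 on LF and -0.19 on HFS. Ccnd3 (cyclin D3) had 256, 231 and 159 in Lean-LF, 275, 216 and 244 in Lean-HFS, 138, 125 and 186 in GDM-LF, and 179, 140.0 and 196 in GDM-HFS. Only Lean-LF 3, at 159, lies among the GDM libraries. Its log2 difference was -0.51 ± 0.15 (adjusted p = 0.0471), with -0.51 on LF and -0.52 on HFS.

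Ccnd2, the most abundant gene of the set per kilobase, had 1519.8, 1528 and 1003 in Lean-LF, 893, 1093 and 1112 in Lean-HFS, 761, 1203 and 926 in GDM-LF, and 853, 1022 and 996 in GDM-HFS. The Lean-LF group held its 2 highest libraries, and all 4 groups overlap. Its log2 difference of -0.30 ± 0.15 did not pass (adjusted p = 0.188). Cdk4 was the steadiest, at 454 ± 31.8 (SD, n = 3) for Lean-LF and 514 ± 68.8 for GDM-LF, and at 502 ± 49.6 for Lean-HFS and 545 ± 22.8 for GDM-HFS, with a log2 difference of 0.15 ± 0.10. Both calls in this group were close to the threshold: Ccnd1 passed in 6 and Ccnd3 in 7 of 25 alternative fits. Leaving out any 1 library kept the sign of both. Ccnd1 then passed only without Lean-LF 3 or without GDM-LF 1, with a lowest adjusted p of 0.0232, and Ccnd3 only without Lean-LF 3 or without GDM-LF 3, with a lowest of 0.0117.

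**Figure D4:**
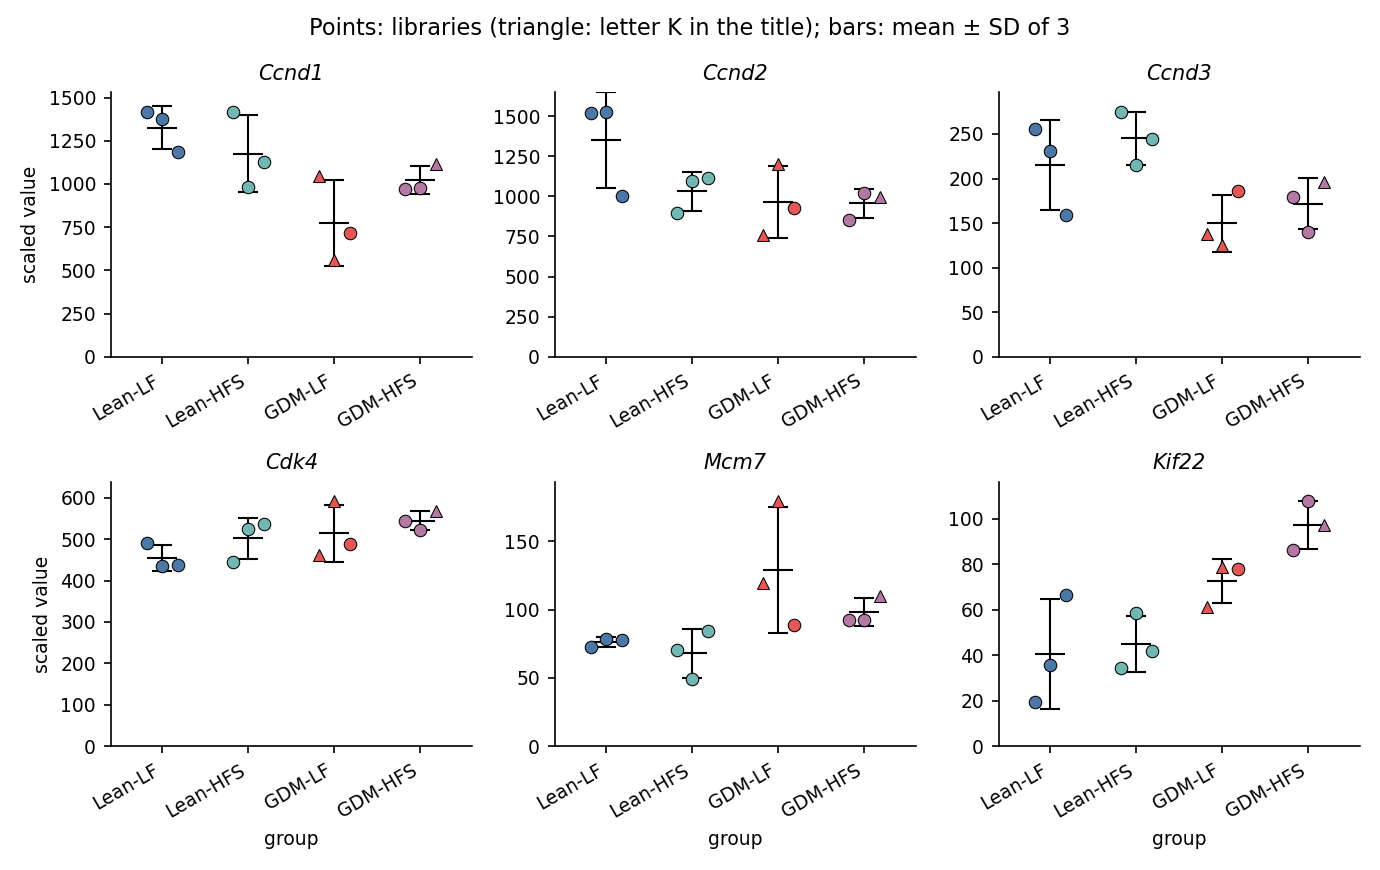
Scaled values (vertical axes, from 0) of the 3 D-type cyclins, Cdk4, Mcm7 and Kif22 in the 4 groups; points are libraries, triangles those whose title holds K, and bars the mean ± SD of 3. The 6 GDM libraries lie above the 6 lean ones for Mcm7 (88.6 or more against 84.2 or less) and overlap them for the other 5 genes.

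The E and A cyclins, Cdk2 and E2f1 drive the start and course of S phase, and none of these 5 genes passed. Ccne2 (cyclin E2), the highest of them per kilobase, had 33.0, 38.3 and 44.4 in Lean-LF, 38.98, 52.1 and 33.2 in Lean-HFS, 119, 42.1 and 75.5 in GDM-LF, and 49.4, 41.5 and 41.0 in GDM-HFS. GDM-LF 1 and GDM-LF 3 were the 2 highest, and the groups overlap. Its log2 difference was 0.50 ± 0.23 (adjusted p = 0.153). E2f1, the transcription factor, ranged from 1.86 to 2.17 in Lean-LF and from 4.08 to 11.3 in GDM-LF, but from 1.99 to 12.1 in Lean-HFS. How many of all genes separate 2 groups of 3 libraries in this way was not counted. The log2 difference of E2f1 was 0.86 ± 0.37 (adjusted p = 0.137). Those Lean-LF values rest on few reads, since the lowest library held 5. Among the CDK inhibitors, Cdkn1b (p27) had 179, 199.6 and 158 in Lean-LF, 177, 181 and 189 in Lean-HFS, 192, 186 and 289 in GDM-LF, and 133, 163 and 174 in GDM-HFS. GDM-LF 3 alone stood high. Its log2 difference was 0.03 ± 0.13, and those of Cdkn2c (p18) and Cdkn2a were -0.19 ± 0.19 and 0.36 ± 0.42.

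Of the MCM helicase genes and Pcna, 1 of 7 rose. Mcm7 had 72.4, 78.7 and 78.1 in Lean-LF, 70.8, 49.0 and 84.2 in Lean-HFS, 119.7, 179 and 88.6 in GDM-LF, and 92.6, 92.7 and 110.2 in GDM-HFS. Every GDM library lies above every lean one, the only such gene of the 39; among all genes tested 2.8% were separated this way upward and 2.32% downward. Mcm7 rose by a log2 difference of 0.62 ± 0.18 (adjusted p = 0.0435), 0.69 on LF and 0.56 on HFS. Its 3 highest values are those of the K libraries, and without them the difference was 0.34 and did not pass. It passed in 8 of 25 alternative fits, and in 3 of the 12 that left out 1 library (GDM-LF 3, Lean-HFS 3 or Lean-LF 3 being the one left out), with log2 differences of 0.49 to 0.74 over those 12. With the acinar level as a covariate the difference was 0.41 (adjusted p = 0.113); GDM-LF 2, its highest library, also had the highest acinar marker sum. None of the other 5 helicase subunits passed, and the difference between subunits was not tested. Mcm2 had a log2 difference of -0.02 ± 0.18, Mcm4 of -0.26 ± 0.16, Mcm6 of 0.32 ± 0.27, Mcm3 of 0.64 ± 0.37 and Mcm5 of 0.67 ± 0.44, the last 2 as large as that of Mcm7 with wider errors; the 6 proteins form 1 ring.

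Pcna had 261, 212 and 345 in Lean-LF, 251, 353 and 284 in Lean-HFS, 302, 286 and 395 in GDM-LF, and 302, 371 and 336 in GDM-HFS, an overlap of all groups and a log2 difference of 0.23 ± 0.14 (adjusted p = 0.283). None of the 3 genes of nucleotide synthesis passed. Tyms (thymidylate synthase) had 67.9, 75.7 and 74.8 in Lean-LF, 75.3, 68.9 and 107 in Lean-HFS, 114, 179 and 65.8 in GDM-LF, and 129, 86.9 and 61.7 in GDM-HFS. Its GDM libraries spanned both its highest and its lowest value. Its log2 difference was 0.35 ± 0.24, that of Rrm1 0.16 ± 0.14 and that of Rrm2 0.70 ± 0.57, the last at 0.12 without GDM-LF 1.

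By limma no gene of the B cyclin group and none of the 7 mitotic kinase, checkpoint and exit genes passed. DESeq2 called Cdk1, in a fit that called 18.5% of all genes, against 11.6% in the main fit. Without GDM-LF 3 limma called Cdk1 and Cdc20, and 17.5% of all genes. Cdk1, the mitotic kinase, had 1.86, 6.09 and 2.99 in Lean-LF, 3.59, 3.98 and 6.83 in Lean-HFS, 27.9, 7.86 and 6.99 in GDM-LF, and 7.86, 4.30 and 11.5 in GDM-HFS. Its 5 highest values are from GDM libraries, and only GDM-HFS 2, at 4.30, falls among the lean ones. The log2 difference was 1.06 ± 0.39 (adjusted p = 0.0846), and 0.77 without GDM-LF 1. Cdc20, the activator of mitotic exit, had 4.79, 2.61 and 6.15 in Lean-LF, 5.38, 5.97 and 10.47 in Lean-HFS, 23.7, 14.03 and 4.08 in GDM-LF, and 7.41, 7.53 and 9.23 in GDM-HFS. Its 2 highest libraries were GDM-LF 1 and GDM-LF 2, both K libraries; its difference was 0.70 ± 0.37 (adjusted p = 0.214), and 0.01 without the K libraries. Log2 differences in the group of 7 ran from 0.14 for Bub1b to 0.70, all above 0, and 1 of the 7 (Bub1b, -0.28) turned negative without GDM-LF 1. Foxm1, the transcription factor that drives mitotic genes, did not follow them: its difference was -0.49 ± 0.26, its highest library was Lean-LF 2 (15.2), and GDM-HFS held its 3 lowest values (3.44 to 4.72). The share of all genes with their 3 lowest values in 1 group was not counted.

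Mki67 and Top2a, the usual markers of dividing cells, had log2 differences of 0.49 ± 0.50 and 0.14 ± 0.56 between dams, and of -0.02 and -0.47 without GDM-LF 1. Kif22 showed another pattern, with 19.4, 35.7 and 66.6 in Lean-LF, 34.5, 58.5 and 41.9 in Lean-HFS, 61.3, 78.6 and 77.8 in GDM-LF, and 86.5, 108 and 97.5 in GDM-HFS. The 3 GDM-HFS values exceed the 9 others, and Lean-LF 3 reaches into GDM-LF. How many of all genes have 1 group above all other libraries was not counted. Kif22 rose by a log2 difference of 1.05 ± 0.25, or 2.07-fold (adjusted p = 0.0218), 0.98 on LF and 1.12 on HFS. The log2 difference was 1.11 without GDM-LF 1 and 1.104 without the K libraries (adjusted p = 0.203). It passed in 18 of 25 alternative fits. The call was lost without Lean-LF 1, Lean-LF 2, Lean-HFS 1 or GDM-HFS 3, with an adjusted p of at most 0.0607 and a log2 difference of 0.84 to 1.27 over the 12 leave-one-out fits. Lean-LF 3, the lean library with the highest Kif22, is also the lean library with the lowest ribosomal RNA share. Lean-LF 1, with the next lowest share (11.3%), had the lowest Kif22. Lean-HFS 2, with a share of 31.3%, had the second highest Kif22 of the lean libraries. The relation between the share and Kif22 within the lean libraries was not tested. Of the nearest entries on either side of Kif22 that passed the filter on low values, Maz, 619 bases away, had 68.1 to 113 in lean and 47.4 to 83.9 in GDM libraries. Zg16, 7370 bases away on the other side, which encodes a zymogen granule protein of acinar cells, had 499 to 3677 in lean and 599 to 13122 in GDM libraries, highest in GDM-LF 2, the library with the highest acinar marker sum.

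Mis18a followed the letter in the library titles. It had 1.06, 0 and 0.499 in Lean-LF, 0 in all 3 Lean-HFS libraries, 24.1, 39.6 and 0.874 in GDM-LF, and 3.59, 0.430 and 20.2 in GDM-HFS. The 3 K libraries held 20.2 to 39.6 and the other 9 at most 3.59, the 3 other GDM libraries among them. All 3 K libraries are from GDM dams, and no lean library holds the letter. The lowest K library was 5.62 times the highest other. Among the 12339 genes tested only Prrx2, a homeobox gene of mesenchyme, also reached 5 times (7.60). Both passed the filter (a mean scaled value of at least 1) through the libraries where they are high. Mis18a had a lean mean of 0.26, and Prrx2 was at most 0.911 outside the K libraries. Their place among the genes tested is therefore not independent of those libraries. All 3 K libraries lay above the other 9 in 369 genes (2.99%), of which Mis18a and Mcm7 belong to the set. The log2 difference between dams of 2.73 ± 0.74 (adjusted p = 0.0348) depends on the pseudocount, since 4 libraries are at 0 reads, and ran from 0.86 to 6.34 over the alternatives. Without the K libraries it was 0.86 and did not pass (adjusted p = 0.384). Against Lean-HFS, with its 3 libraries at 0 and a floor of 3 reads per library, GDM-HFS was at least 6.20-fold higher; that mean rests on GDM-HFS 3, a K library, and without it the bound was 1.55-fold. The nearest entries on either side that passed the filter on low values showed no such split. Urb1, 23478 bases away, ran from 149.7 to 239 over all 12 libraries, and Hunk, 209283 bases away, from 0.532 to 6.37. Entries that did not pass the filter were not looked at. What the letter stands for, and so whether it marks animals, litters, days or something else, is not given in the labels, and its part in these values was not tested.

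**Figure D5:**
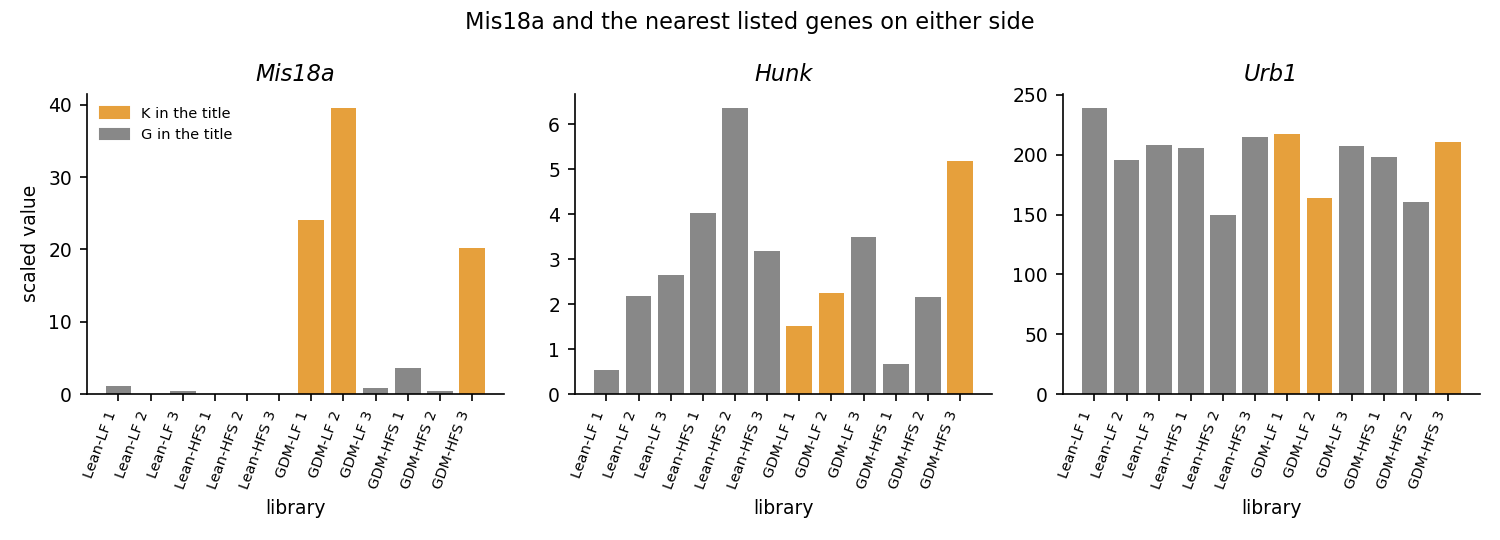
Scaled values (bars from 0) of Mis18a and of the nearest entries that passed the filter on low values, Hunk and Urb1, in the 12 libraries, coloured by the letter in the library title. Mis18a is at 20.2 or more in the 3 K libraries and at 3.59 or less in the 9 others, and the neighbours are not split by letter.

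In the list of 175 other cell cycle genes, 9 rose and none fell between dams, 5.14% against the same background of 11.6% called; 32 had an unadjusted p under 0.05. The largest differences were those of Rfc4, a subunit of the clamp loader (1.02 ± 0.24 on the log2 scale), Mcm10, a helicase activator (1.00 ± 0.27), Rpa3 (0.93 ± 0.18) and Rpa2 (0.69 ± 0.19), which coat single-stranded DNA, the centromere protein gene Cenpl (0.80 ± 0.24), and Rfc3 (0.66 ± 0.18). Rfc4 stood at 26.3 ± 11.3 (SD, n = 3) for Lean-LF against 84.7 ± 31.8 for GDM-LF, and at 43.7 ± 5.15 for Lean-HFS against 58.3 ± 13.1 for GDM-HFS. Of the 9, 6 are among the 47 genes listed under DNA replication (12.8% of those, near the background). The list's median difference was 0.26, with 131 of 175 above 0 (52.7% of all genes). Without GDM-LF 1 the list's median was 0.18, with 111 above 0 (52.4% of all genes), and 5 were called higher and 2 lower (9.98% of all genes called). Without the K libraries it was 0.10, with 104 above 0 (51.0% of all genes) and none called (13 at an unadjusted p under 0.05, beside 2111 of all genes). With the acinar level as a covariate 1 was called, on the deposited values without rescaling 2, and with the Rn45s level as a covariate none (4 at an unadjusted p under 0.05).

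On each diet alone, none of the 39 genes passed. With LF weaning, GDM less lean, 14 genes had an unadjusted p under 0.05 (26.6% of all genes) and 32 differences were above 0 (53.4% of all genes). The median was 0.59, beside 0.05 over all genes, of which 1.58% were called (0.851% higher and 0.729% lower). The lowest adjusted p values were 0.0585 for Ccnd1 (-0.82 ± 0.21) and 0.0748 for Cdk6 (1.66 ± 0.51), the latter at 1.496 to 2.61 in Lean-LF and 4.08 to 19.4 in GDM-LF. Without GDM-LF 1 the median was 0.24 and 4 genes had an unadjusted p under 0.05, beside 2868 of the 12339 genes tested. Here the tools parted. On the recovered reads edgeR's quasi-likelihood test called none (19 at an unadjusted p under 0.05, beside 3477 of 12336 genes). DESeq2 called 9, with Ccnd1 lower and Ccne2, Cdk1, Cdk6, E2f1, Mcm7, Mis18a, Mki67 and Rrm2 higher, in a fit that called 13.7% of all genes. Without GDM-LF 3 limma called 7 of the 39 on LF and 13.6% of all genes, and without Lean-LF 3 it called 4 and 13.99%. Of the wider list, Rfc4 alone rose on LF (1.64 ± 0.34, adjusted p = 0.0477).

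With HFS weaning, the median difference between dams was -0.04, with 19 of 39 above 0, and 4 genes had an unadjusted p under 0.05 (Kif22, Ccnd3, Mis18a and Mcm7; 14.2% of all genes). By limma 0.0081% of all genes were called. Neither edgeR nor DESeq2 called any of the 39, DESeq2 calling 2.17% of all genes. At an unadjusted p under 0.05 each had 3 of the 39, beside 1712 of 12336 genes by edgeR. In 14 of the 39 genes (35.9%, against 17.98% of all genes) the difference was above 0 on LF and below 0 on HFS, Mki67 (1.44 and -0.46), Bub1 (1.29 and -0.51) and Top2a (0.79 and -0.51) among them. Without GDM-LF 1 the count was 12 (30.8%, against 16.9% of all genes). Mki67, Bub1 and Top2a were highest in GDM-LF 1. In GDM-LF 2 and GDM-LF 3, Top2a had 7.30 and 3.50, against 5.86 to 8.26 in Lean-LF. Mki67 had 10.9 and 4.08 there, against 3.49 to 6.52, and Bub1 4.21 and 3.50, against 1.06 to 3.91. The test of the difference between diets itself, the interaction of dam and diet, passed for none of the 39 or of all genes tested. Its lowest adjusted p among the 39 was 0.784, and 3 had an unadjusted p under 0.05 (Cdk6, Ccnb1 and Plk1, against 5.92% of all genes). edgeR and DESeq2 called none (5 and 10 at an unadjusted p under 0.05, given without the share over all genes by these tools). The median interaction was -0.51, and -0.21 without GDM-LF 1.

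Weaning diet itself moved no gene past the threshold, in the set or among all genes tested, by limma; DESeq2 called 2 of all genes in the average over dams, 33 in offspring of GDM dams and 1 in offspring of lean dams, and limma called 40 in offspring of GDM dams without GDM-LF 3, all outside the set. Averaged over dams, HFS less LF, 3 of the 39 had an unadjusted p under 0.05 (4.95% of all genes): Cdkn2a at 1.04 ± 0.42, Aurkb (Aurora B) at -1.03 ± 0.37 and Foxm1 at -0.60 ± 0.26, each with an adjusted p of 0.883. By edgeR and DESeq2 these counts were 2 and 1, with none called. Shares over all genes at an unadjusted p by these tools are not given, here or below. Cdkn2a ranged from 0.435 to 3.20 with LF and 1.82 to 5.97 with HFS among offspring of lean dams, and from 0.376 to 4.77 and 3.44 to 6.35 among those of GDM dams, so the diets overlap under either dam. In offspring of lean dams the median diet difference was 0.21 with 2 genes at an unadjusted p under 0.05 (2.18% of all genes; Cdk6 and E2f1, with 2 by edgeR and 2 by DESeq2, none called). In offspring of GDM dams it was -0.36 with 5 such genes (9.63% of all genes; Cdk6, Ccne2, Cdkn1b, Ccnb1 and Foxm1; 7 by edgeR and 7 by DESeq2, none called), and -0.11 without GDM-LF 1. Those 2 diet comparisons share no library with each other, but each shares its groups with the comparisons between dams.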

How the data were processed

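RNA was measured in 12 rat islet libraries, ribosomal RNA depleted and prepared with a directional kit, per the labels' protocols. Per the submitters' processing notes and the file headers, the authors aligned with STAR 2.5.1b and counted exon reads on both strands with HOMER 4.9 on rn5; DESeq2 is named without a version. The deposited values are headed as FPKM, but each is a whole number of reads (100% within 0.1 of a read, up to 1000 reads) divided by a per-library factor, a depth-corrected signal not divided by length. From it, median-ratio scaled values were computed (factors 0.83 to 1.27). Genes whose scaled values averaged 1 or more were tested with limma 3.58.1 (R 4.3.3; trend; log2(scaled value + 1), which understates changes of low genes), with 1 mean per group over all 12 libraries and Benjamini-Hochberg adjustment over 12339 genes within each of 7 comparisons, threshold 0.05. edgeR 4.0.16 and DESeq2 1.42.0 on recovered reads (3 rRNA entries left out) were alternatives, among those described in the closing section. All 3 libraries of a group differed beyond sampling noise. The fit was tested on simulated data. The 39 genes and the other lists (marker lists: islet, acinar, duct, endothelial, macrophage, lymphocyte, stellate and fibroblast, erythrocyte, Schwann) were chosen with earlier results of these data known. Values in every library are given for genes past the threshold and for the gene highest per kilobase in each role; other genes are described by ranges, and the wider list by counts and up to 6 names; Mki67, Top2a, Rrm2, Ccna2 and Bub1 were singled out after their values were seen. Marker sums ran from 2819 to 10721 for duct, 443 to 1490.3 for endothelial, 0 to 14.6 for lymphocyte, 89.6 to 6862 for erythrocyte and 16.5 to 39.5 for Schwann cells.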

Additional observations from a re-analysis of the deposited data

How the results depend on the processing

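Between dams averaged over diets, 5 genes of the set passed; the count was 2 on the deposited values without rescaling, 3 with a pseudocount of 5, 2 without a filter on low values, 1 without the mean-variance trend, 1 with the length trend removed, 1 (Ccne2 in place of the others) with the acinar level as a covariate, and 0 with the Rn45s level as a covariate or without the K libraries. Leaving out 1 library gave 0 to 6. None passed without Lean-LF 1, Lean-LF 2, Lean-HFS 1 or GDM-HFS 3 (1.48% to 3.20% of all genes called). The count was 1 without Lean-HFS 2 or GDM-HFS 1 (7.92% and 8.54% of all genes). It was 2 without GDM-HFS 2, GDM-LF 2, GDM-LF 1 or Lean-HFS 3 (6.35% to 9.98%), and 6 without GDM-LF 3 (17.5%). edgeR called 4 and DESeq2 6. Over all genes the count of 1426 became 1487 by edgeR, 2284 by DESeq2, 674 without rescaling, 671 without the trend, 552 with the length trend removed and 477 with the acinar covariate, and on leaving out 1 library it ran from 183 (1.48%, without Lean-LF 2) to 2471 (20.0%, without Lean-LF 3), so the background of 11.6% moves with single libraries. On LF weaning the count of 0 became 9 by DESeq2 (13.7% of all genes called) and 1 without rescaling (Ccnd1; 3.94% of all genes), and 0 to 7 on leaving out 1 library (up to 13.99% of all genes). The other comparisons stayed at 0 under every alternative run. No called gene changed sign; the causes of these moves were not tested. Nothing in the labels says that replicate numbers pair the libraries. Of 18 pairs of the same number, 5 had a correlation of deviations over 0.1 (range -0.50 to 0.20), and 5 of 12 libraries correlated best with their own number. Deviations around means of 3 libraries cannot decide whether the numbers pair them. With the replicate block the count between dams was 2 (Kif22 and Ccnd1). The deposited scaling moves the median of all genes to -0.17 on LF, 0.20 on HFS and 0.42 for the interaction, while the set's medians there were 0.37, 0.17 and -0.07. Depth limits the low genes: 16 of 39 had a mean scaled value under 10.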
